A study of Homo sapiens with 12 samples.

Results

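Transcripts of 10 classical microtubule-associated proteins (MAPs) were followed in LNCaP, a human prostate cancer cell line that responds to androgen, across 2 kinds of serum and 3 treatments. The genes, chosen from textbook families of proteins that bind microtubules or tubulin, were MAP1A, MAP1B, MAP1S, MAP2, MAP4, MAPT, MAP6, MAP7, MAP9 and STMN1. The array annotation named all 10, each with 1 transcript cluster (a group of probes along a gene), out of 14812 named genes. All 10 passed the filter on low values, which asked that 2 or more arrays exceed the median over all values and kept 11105 genes for testing.

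Every group carried the same control plasmid, MSCV-LMP. Cells were kept either in serum treated with charcoal and dextran, which depletes steroid hormones, or in full serum, and for 16 h received ethanol as the vehicle or 1 nM of either cabazitaxel or docetaxel. The 6 groups held 2 Affymetrix Human Gene 2.0 ST arrays each, 12 in all. Nothing in the labels says that the arrays of a group came from separate cultures, so each p-value reflects no more than the spread among these arrays. The RNA is from bulk cells, in which fewer cells with a transcript and less of it per cell cannot be told apart, and the array reads all isoforms of a gene as 1 value.

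Microtubules are polymers of tubulin dimers that grow and shrink at their ends. Structural MAPs such as MAP2, tau and MAP4 bind along the lattice through related repeats and stabilise it, whereas stathmin (STMN1) binds free tubulin dimers and favours disassembly. Taxanes bind tubulin within the polymer and hold microtubules stable, which is why the proteins that tune microtubule stability are studied alongside these drugs. MAP1A, MAP1B, MAP2 and tau are best known from neurons, and MAP4 is the main structural MAP outside the nervous system.

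No member passed the test in any of the 13 comparisons between groups (limma, Benjamini-Hochberg adjusted p under 0.05 over all genes tested). For full against charcoal serum, as the mean over the 3 treatments, 0 of 10 members were called, against 2.31% of all genes. The share of all genes called was 0.396% for the serum comparison in vehicle, 0.396% in cabazitaxel and 0.315% in docetaxel, with 0 of 10 members in each. It was 0% for each of the 9 comparisons that involve a drug effect, so a lack of calls there sets the members apart from nothing. The group means of a member spanned from 0.099 on the log2 scale for STMN1 to 0.57 for MAP1B. Once the 6 groups were ordered by level for each member, the arrays overlapped in 43 of the 50 steps between neighbours, and 4 steps exceeded the spread within groups (1 pooled SD). Ordering by level sets the closest groups side by side, which favours overlap for any gene. These steps were not counted over all genes, so they do not set the members apart.

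**Figure D1:**
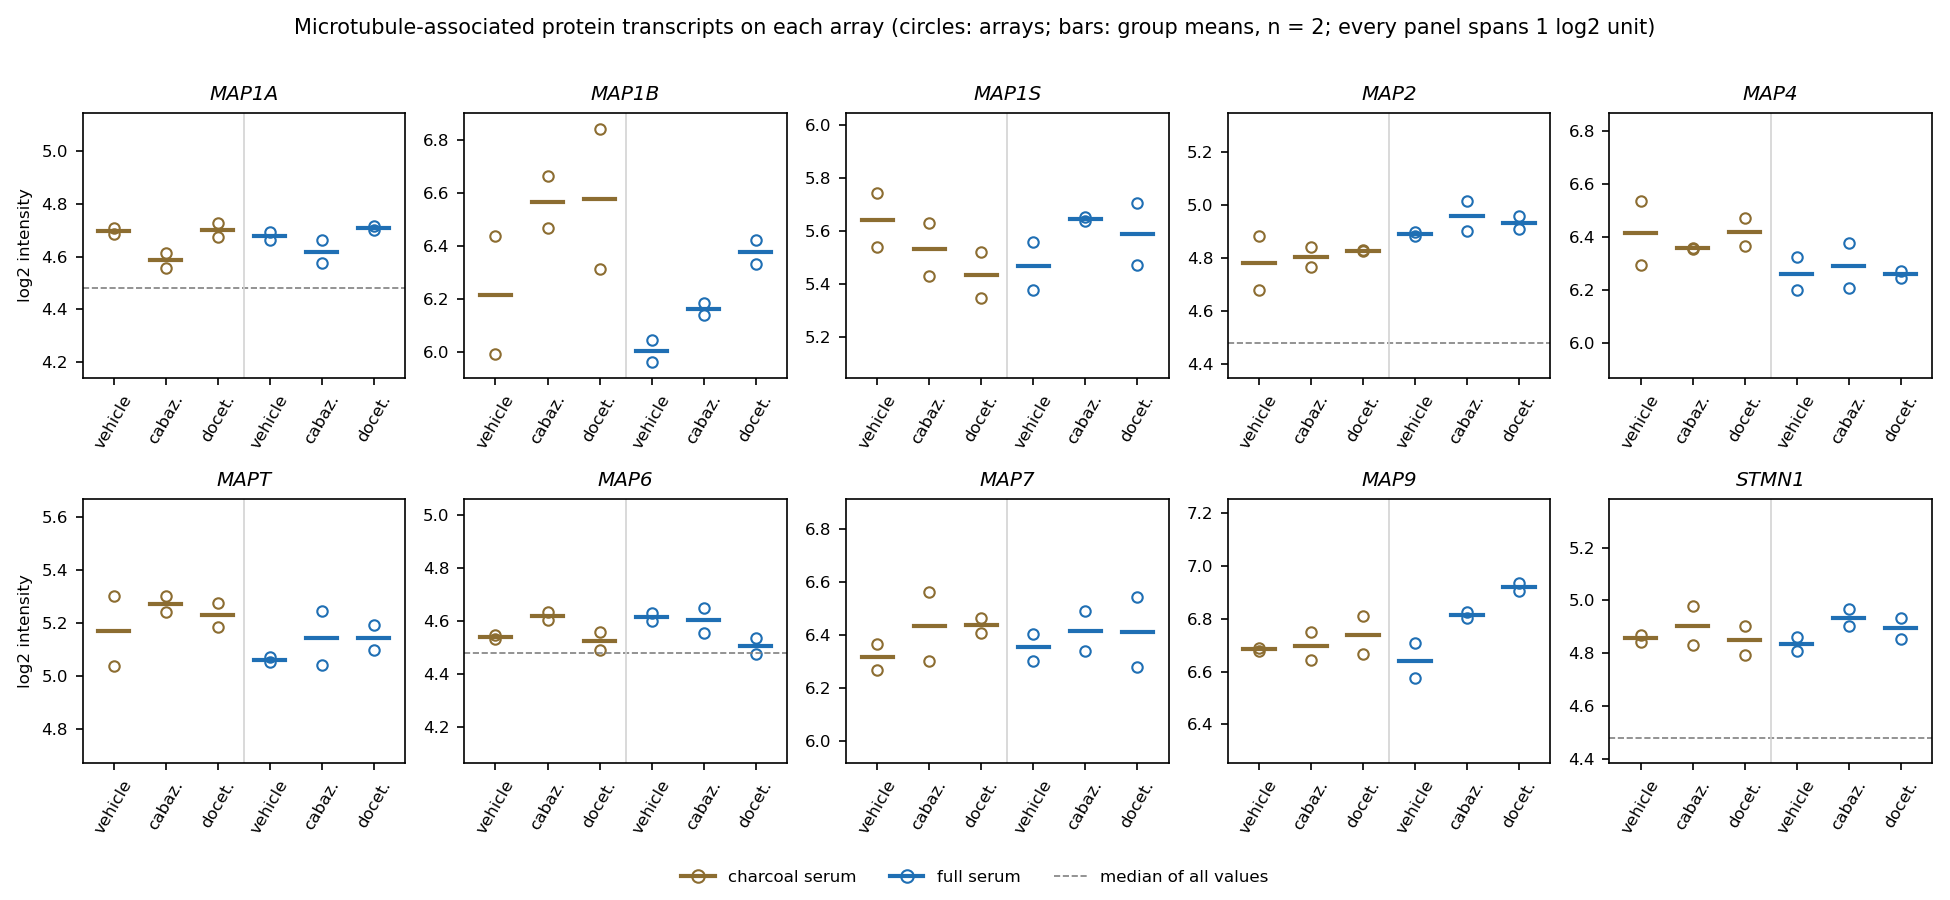
Log2 intensity of each member on each of the 12 arrays (vertical axis, 1 log2 unit in every panel) by serum and treatment (horizontal axis). Circles are arrays, bars are means of 2 arrays, and the dashed line is the median of all values at 4.48, drawn where it falls in the panel; MAP1B spans the widest range, from 5.96 to 6.84, and MAP6 reaches down to the median.

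Full serum was compared with charcoal serum to show how these transcripts differ between the sera. Which component of the serum a difference follows was not tested. The difference is given as full minus charcoal, as the mean of the 3 treatments with 6 arrays per serum. It was below 0 for MAP1B, MAP4 and MAPT and above 0 for MAP2 and MAP9, with none past the threshold. The remaining members lay within 0.032 of 0. Of the 10 members 3 (MAP1B, MAP2 and MAP4) had an unadjusted p under 0.05, against 13.5% of all genes. The median difference of the 10 members was 0.0103 against -0.00142 over all genes.

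MAP1B (transcript cluster 16985950) binds microtubules in growing axons. In charcoal serum its log2 intensity was 5.99 and 6.44 with vehicle, 6.47 and 6.67 with cabazitaxel, and 6.31 and 6.84 with docetaxel. In full serum it was 6.04 and 5.96 with vehicle, 6.18 and 6.14 with cabazitaxel, and 6.42 and 6.33 with docetaxel. The first vehicle array in charcoal serum therefore lay among the full-serum arrays, while the other 5 charcoal arrays overlapped only with the docetaxel arrays of full serum. The mean was 6.45 ± 0.29 in charcoal and 6.18 ± 0.17 in full serum (SD, n = 6 arrays each), a difference of -0.27 (95% confidence interval -0.48 to -0.06, limma adjusted p = 0.215). The difference was -0.41 under cabazitaxel (adjusted p = 0.645 by limma), -0.21 under vehicle and -0.20 under docetaxel, and it changed sign under vehicle without charcoal vehicle array 2 and under docetaxel without charcoal docetaxel array 2 (0.06).

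MAP2 (16890207) is the lattice-binding MAP of dendrites. Its serum difference was above 0 in each treatment. In charcoal serum it stood at 4.68 and 4.88 with vehicle, 4.76 and 4.84 with cabazitaxel, and 4.83 and 4.82 with docetaxel. In full serum it stood at 4.88 and 4.90 with vehicle, 4.90 and 5.02 with cabazitaxel, and 4.96 and 4.91 with docetaxel. All 6 full-serum arrays lay at or above 4.88, a level that 1 charcoal array, vehicle array 2, also reached. The difference was 0.12 (95% confidence interval 0.02 to 0.23, limma adjusted p = 0.261), or 1.09-fold, and under vehicle it was 0.11, or 0.01 without charcoal vehicle array 1. Because MAP2 lay close to the floor of the deposited values, its difference became 0.28 once an assumed constant of 16 was subtracted from the intensities (limma adjusted p = 0.262).

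MAP4 (16953241) pointed the other way from its relative MAP2. Charcoal arrays read 6.29 and 6.54 with vehicle, 6.36 on both with cabazitaxel, and 6.47 and 6.37 with docetaxel. Full-serum arrays read 6.20 and 6.32 with vehicle, 6.21 and 6.38 with cabazitaxel, and 6.27 and 6.25 with docetaxel. The sera overlapped, since the second full-serum arrays with vehicle and cabazitaxel lay above charcoal vehicle array 1, and that with cabazitaxel lay above 3 further charcoal arrays. The difference was -0.13 (95% confidence interval -0.25 to -0.01, limma adjusted p = 0.339).

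MAPT (16835016) encodes tau, the axonal member of the same family. It ranged from 5.04 to 5.30 in charcoal serum (median 5.26) and from 5.04 to 5.25 in full serum (median 5.08). The lowest charcoal array, vehicle array 2, lay level with the lowest full-serum arrays, which put the whole full-serum range within the charcoal range. The difference was -0.11 (95% confidence interval -0.23 to 0.02, limma adjusted p = 0.475), and it was -0.06 without charcoal vehicle array 1 and -0.19 with the constant subtracted.

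MAP9 (16980882) encodes a protein of the mitotic spindle, and its serum difference was near 0 under vehicle and positive under both drugs. Under vehicle the charcoal arrays read 6.69 and 6.68 and the full-serum arrays 6.57 and 6.71, which overlap. Under docetaxel they read 6.81 and 6.67 against 6.91 and 6.93, which do not, a difference of 0.18 (95% confidence interval 0.01 to 0.35, limma adjusted p = 0.586) that was 0.11 without charcoal docetaxel array 2. Over the 3 treatments the difference was 0.08 (95% confidence interval -0.02 to 0.18, limma adjusted p = 0.483).

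The other 5 members had serum differences near 0 on the deposited scale, which compresses those of MAP1A, MAP6 and STMN1 near the floor. MAP1A, the relative of MAP1B in mature neurons, differed by 0.01 (95% confidence interval -0.08 to 0.09). MAP6, which protects microtubules from cold, differed by 0.01 (-0.07 to 0.10) and STMN1 by 0.02 (-0.08 to 0.12). MAP7, which recruits the motor kinesin-1 to microtubules, differed by -0.003 (-0.14 to 0.14), and MAP1S, a widely expressed relative of MAP1B, by 0.03 (-0.11 to 0.18). With the constant subtracted, MAP1A, MAP6 and STMN1 stood at 0.02, 0.04 and 0.04.

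Of the luminal prostate markers, the kallikrein genes differed by serum. Of 8 luminal markers 6 were named, all above the median of all values on 12 arrays, and KLK2 and KLK3, androgen-induced kallikrein genes, were higher in full serum by 1.47 and 0.97 (limma adjusted p = 8.18e-06 and 0.000368, 6 arrays per serum). The other 4 were not called, with KRT18 at 0.05, KRT8 at -0.03, HOXB13 at -0.10 and FOLH1 at -0.20. The summed intensity of the 6 ran from 2045 to 2383 in charcoal and from 2631 to 3270 in full serum. Of 12 neuronal or neuroendocrine markers 6 were named, with a sum of 136 to 146 in charcoal and 138 to 147 in full serum. SYP, CHGA and INSM1 were above the median on 12 arrays, GAP43 on 8, and CHGB and NCAM1 on 0. Of 8 fibroblast markers 4 were named, with sums of 94.7 to 100.2 and 93.1 to 106.5 with THY1 and VIM above the median on 12 arrays and DCN and LUM on 0. The basal marker KRT14 was above it on 9 arrays and KRT5 on 0, and the blood marker CD68 on 12. Of these markers of other cell types, the 8 that were tested had no call between sera as the mean of the treatments. The part of these markers in the serum differences was not tested.

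The drug effects were taken against vehicle, averaged over the sera, with 4 arrays per treatment. With cabazitaxel, 8 members had a positive and 2 a negative difference, with a median of 0.059 against 0.00208 over all genes, of which 51.1% had a positive difference. With docetaxel the counts were again 8 and 2, with a median of 0.0356 against 0.00913 over all genes, of which 55% had a positive difference. Both drugs were set against the same 4 vehicle arrays, so the values for cabazitaxel and docetaxel are not independent of each other. Limma called 0 genes in either comparison, with 520 (4.68%) and 672 (6.05%) genes at an unadjusted p under 0.05, of which 0 and 2 were members. Averaged over sera, the docetaxel and vehicle arrays overlapped for all 10 members, and 2.78% of all genes did not overlap.

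**Figure D2:**
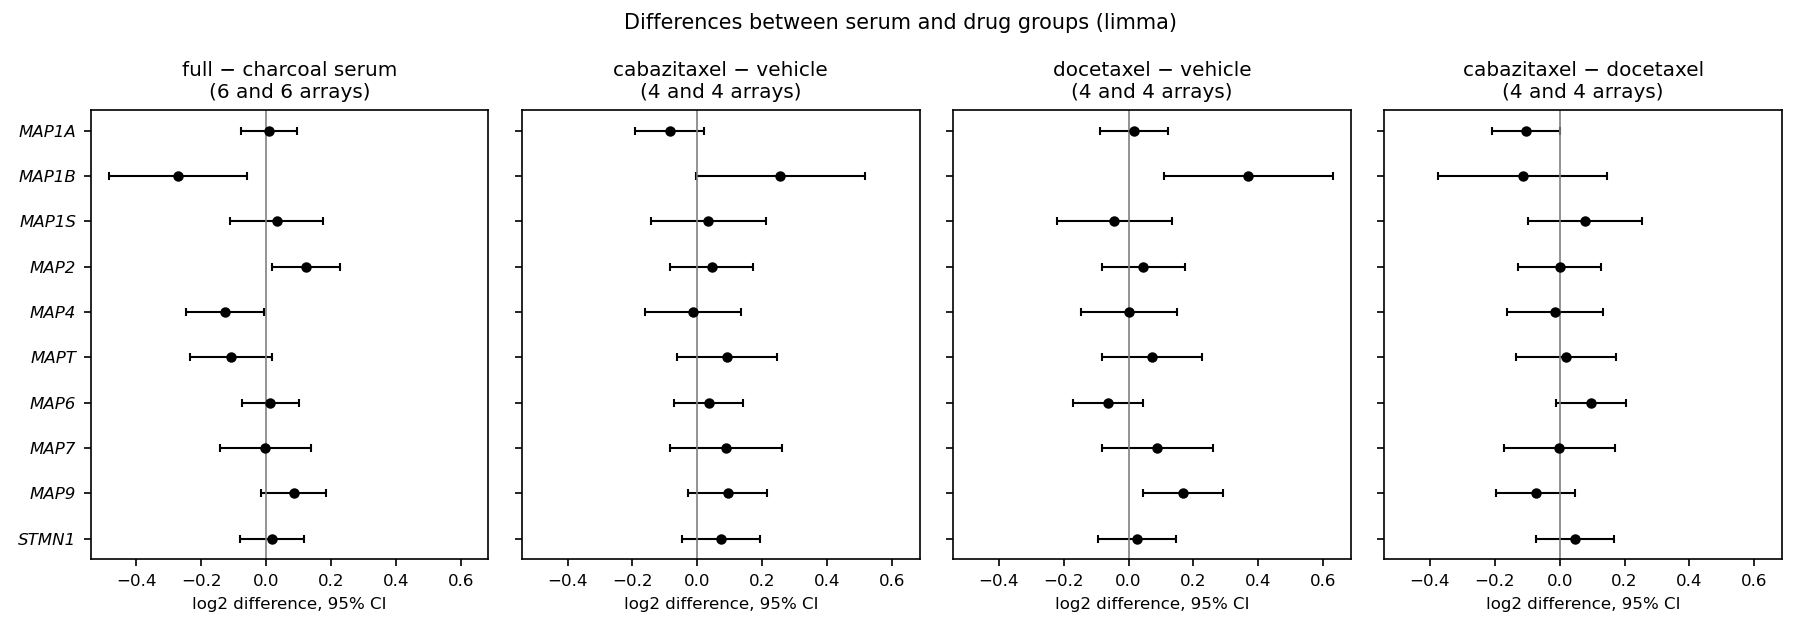
Log2 difference (horizontal axis) of each member (rows) for full minus charcoal serum, each drug minus vehicle, and cabazitaxel minus docetaxel, with limma's 95% confidence intervals as bars. MAP1B has the widest intervals, and its difference from vehicle is 0.26 for cabazitaxel and 0.37 for docetaxel, with adjusted p of 1.00 and 0.757.

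MAP1B had the largest drug difference of the members. Its mean was lowest with vehicle in each serum, at 6.21 ± 0.32 in charcoal and 6.004 ± 0.057 in full serum (SD, n = 2 arrays each). With docetaxel it was 6.58 ± 0.37 and 6.38 ± 0.064, and with cabazitaxel 6.57 ± 0.14 and 6.16 ± 0.031 (SD, n = 2 arrays each). In full serum the arrays of the 3 treatments did not overlap, whereas in charcoal serum vehicle array 2 exceeded docetaxel array 1. Of all genes, 30.9% did not overlap between cabazitaxel and vehicle in full serum, and 34.1% between docetaxel and vehicle. A lack of overlap among all 3 treatments was not counted over all genes. The docetaxel difference was 0.37, or 1.29-fold (SE 0.118, 95% confidence interval 0.11 to 0.63, limma adjusted p = 0.757), and the cabazitaxel difference was 0.26, or 1.19-fold (95% confidence interval -0.005 to 0.52, limma adjusted p = 1.00). Its standard error was larger than the median of 0.0662 over all genes. The docetaxel difference lay between 0.24 without charcoal docetaxel array 2 and 0.50 without charcoal docetaxel array 1, and the cabazitaxel one between 0.14 and 0.37 without charcoal vehicle array 1 or 2.

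MAP9 had the other member difference with an unadjusted p under 0.05 for docetaxel, 0.17 (SE 0.0557, 95% confidence interval 0.04 to 0.29, limma adjusted p = 0.757). In charcoal serum alone it was 0.06. In full serum the vehicle arrays read 6.57 and 6.71, the cabazitaxel arrays 6.80 and 6.82 and the docetaxel arrays 6.91 and 6.93. No treatment overlapped another there, a pattern that was not counted over all genes. In charcoal serum the arrays read 6.69 and 6.68 with vehicle, 6.64 and 6.75 with cabazitaxel and 6.81 and 6.67 with docetaxel, and all 3 treatments overlapped. The docetaxel difference in full serum was 0.28, or 1.21-fold (95% confidence interval 0.11 to 0.45), with an unadjusted p of 0.00456 and a limma adjusted p of 0.88. The difference between the sera in this effect was 0.22 (95% confidence interval -0.02 to 0.47, limma adjusted p = 0.999), so an effect confined to full serum was not shown.

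MAP1A separated cabazitaxel from the other treatments by a small margin. Its 4 cabazitaxel arrays read 4.61, 4.56, 4.57 and 4.66, the vehicle arrays 4.71, 4.69, 4.66 and 4.69, and the docetaxel arrays 4.73, 4.67, 4.72 and 4.70. The cabazitaxel arrays all lay below both other treatments, which 2.33% of all genes showed, in either direction, against vehicle and 2.67% against docetaxel. The differences were -0.09 from vehicle (95% confidence interval -0.19 to 0.02, limma adjusted p = 1.00) and -0.10 from docetaxel (95% confidence interval -0.21 to 0.002, limma adjusted p = 0.958). On the scale with the assumed constant subtracted they were -0.24 and -0.29, since these arrays lay close to the floor.

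MAP1S (16859600) had drug differences of opposite sign in the sera, and the gap between the sera was the widest of the members for each drug. In charcoal serum its arrays read 5.74 and 5.54 with vehicle, 5.63 and 5.43 with cabazitaxel, and 5.52 and 5.35 with docetaxel. In full serum they read 5.56 and 5.38 with vehicle, 5.65 and 5.64 with cabazitaxel, and 5.70 and 5.47 with docetaxel. Charcoal means thus ran from high to low in the order vehicle, cabazitaxel, docetaxel, with overlapping arrays between neighbours, while in full serum vehicle had the lowest mean. The difference between the sera was 0.29 for the cabazitaxel effect (95% confidence interval -0.06 to 0.64) and 0.33 for the docetaxel effect (95% confidence interval -0.02 to 0.68), and neither passed (limma adjusted p = 0.999 for each). The first was 0.19 without charcoal vehicle array 1 and the second 0.21 without full-serum docetaxel array 1. They share the vehicle arrays of both sera, so they are not independent of each other. Of the members 0 of 10 had an unadjusted p under 0.05 for either of these differences between sera, against 3.42% and 3.61% of all genes.

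**Figure D3:**
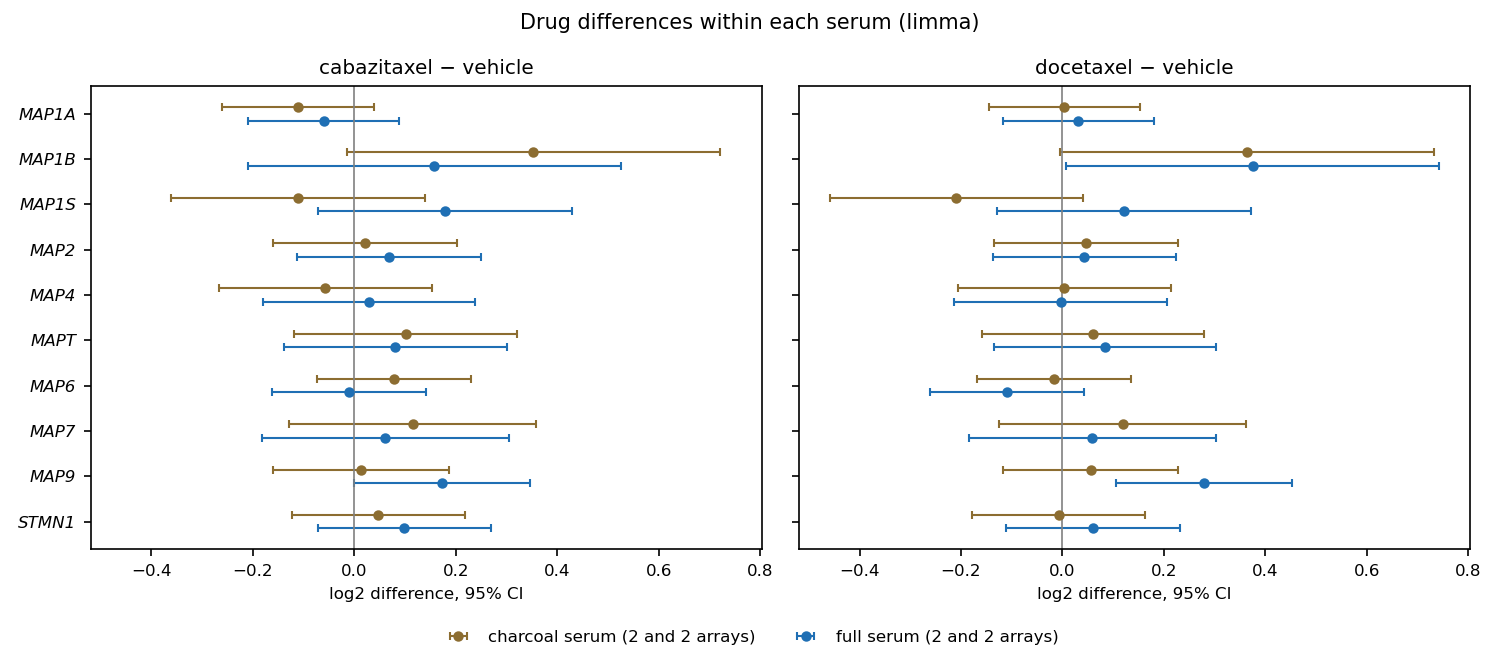
Log2 difference of each drug from vehicle (horizontal axis) for each member (rows) in charcoal and in full serum, with limma's 95% confidence intervals as bars, from 2 arrays per group. For MAP1S the points lie on opposite sides of 0, and for MAP9 with docetaxel the full-serum point is 0.28 and the charcoal point 0.06.

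No member of the lattice-binding family had a drug difference past the threshold. MAP4 differed from vehicle by -0.01 with cabazitaxel (95% confidence interval -0.16 to 0.13) and by 0.0003 with docetaxel (-0.15 to 0.15). MAP2 differed by 0.04 with each drug (-0.08 to 0.17 for both), and MAPT by 0.09 (-0.06 to 0.25) and 0.07 (-0.08 to 0.23). The MAPT differences were 0.17 and 0.13 with the constant subtracted, and 0.03 and 0.01 without charcoal vehicle array 2.

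STMN1 (16683723), the tubulin-sequestering member, read between 4.79 and 4.98 on all 12 arrays. Its charcoal arrays were 4.84 and 4.87 with vehicle, 4.83 and 4.98 with cabazitaxel, and 4.90 and 4.79 with docetaxel. Its full-serum arrays were 4.86 and 4.81, 4.97 and 4.90, and 4.86 and 4.94 in the same order. The differences from vehicle were 0.07 (95% confidence interval -0.05 to 0.19) and 0.03 (-0.09 to 0.15) for cabazitaxel and docetaxel. With the assumed constant of 16 subtracted, the cabazitaxel difference was 0.16.

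MAP7 (17024053) and MAP6 (16742294) completed the set. MAP7 ranged from 6.27 to 6.56 over the 12 arrays, with differences from vehicle of 0.09 for each drug (95% confidence interval -0.08 to 0.26 for both). MAP6 ranged from 4.47 to 4.65, with 11 of 12 arrays above the median of all values, so it was read at the floor. Its differences were 0.03 with cabazitaxel (-0.07 to 0.14) and -0.06 with docetaxel (-0.17 to 0.04).

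With 2 arrays against 2, the serum comparison did not overlap for 1 of 10 members in vehicle, 4 in cabazitaxel and 3 in docetaxel, against 35.5%, 34.9% and 39.6% of all genes. An unadjusted p under 0.05 was reached by 0, 1 and 1 of 10 members there, against 8.57%, 7.07% and 8.13% of all genes. The member was MAP1B under cabazitaxel and MAP9 under docetaxel.

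Within single sera the arrays of members often failed to overlap, as they did for many genes when 2 arrays met 2. In full serum 6 of 10 members did not overlap between cabazitaxel and vehicle, against 30.9% of all genes, and 6 of 10 between docetaxel and vehicle, against 34.1%. These counts share the vehicle arrays of full serum. In charcoal serum they were 3 of 10 against 29.2% for cabazitaxel and 2 of 10 against 32.5% for docetaxel. Limma called 0 genes in each of these 4 comparisons, with 446 (4.02%), 578 (5.2%), 466 (4.2%) and 567 (5.11%) genes at an unadjusted p under 0.05 in that order, of which 0, 2, 0 and 0 were members. The methods' t-test, run on the same arrays, also called 0 after Benjamini-Hochberg adjustment, with 478, 515, 431 and 492 genes before it.

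Cabazitaxel and docetaxel are close analogs, with methoxy groups in cabazitaxel replacing hydroxyl groups of docetaxel, and both were given at 1 nM for 16 h. This pair was compared directly for all 10 members as the mean of both sera, and none passed with adjustment over all genes. Differences, cabazitaxel minus docetaxel, ran from -0.11 for MAP1B (95% confidence interval -0.37 to 0.15) to 0.10 for MAP6 (-0.01 to 0.20). The MAP9 difference was -0.07 (-0.20 to 0.05). The MAP1B difference was 0.02 without charcoal docetaxel array 2. Limma called 0 of all genes here, with 506 (4.56%) at an unadjusted p under 0.05. Intervals of the members other than MAP1B lay between -0.21 and 0.25 on the deposited scale. They are no bound on the change itself, since with the constant subtracted MAP1A stood at -0.29 and MAP6 at 0.30. A p-value that misses the threshold does not show that the compounds act alike.

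Over the 12 arrays, which share their groups and hybridisations, Pearson's r for the 45 pairs of members ran from -0.76 (MAP1A and MAP6) to 0.65 (MAP7 and STMN1). Only 3 pairs exceeded 0.5, and 4 lay below -0.5, among them MAP2 and MAPT at -0.70. The deviations from the group means gave -0.61, 0.72 and -0.86 for these pairs. They also gave 0.86 for MAP2 with MAP4 and -0.88 for MAP4 with MAPT, pairs whose r over the 12 arrays was -0.09 and -0.15. The values 0.86 and -0.88 are the highest and lowest of the 45 pairs. With 2 arrays per group the deviations are equal and opposite, so each such r rests on only 1 difference from each of the 6 groups. These do not weigh equally. For MAP2, MAP4 and MAPT the charcoal vehicle arrays lay furthest apart (SD 0.145, 0.173 and 0.187), followed by full-serum cabazitaxel. The values 0.86 and -0.88 therefore rest mostly on the charcoal vehicle arrays. The values over all arrays thus describe differences between arrays of a group as well as between groups.

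Genes with the most similar profile were looked up for the 3 members with the widest range of group means, among 10003 tested genes. For MAP1B they were FBXO36 (r = 0.93), NCOA1 (0.91), a coactivator of nuclear receptors, and DAAM1 (0.90), a formin of the actin cytoskeleton, over 12 arrays. For MAP9 they were ARF4 (0.87), GPLD1 (0.86) and CASD1 (0.86). For MAP1S they were DCTPP1 (0.90), MED8 (0.88) and TBL3 (0.88). FBXO36, from 4.33 to 4.60 over the 12 arrays, and GPLD1, from 4.38 to 4.68, lay near the floor of the deposited values. With so many genes compared over 12 arrays that share groups, these values describe likeness only.

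Related genes were taken in 7 lists of microtubule regulators with 106 genes, of which 81 were named and 72 tested. In full serum 2 of the 72, EML4 and MARK1, were lower, against 2.31% of all genes called in either direction, and 0 were higher. No listed gene was called for either drug or between the drugs. MARK1 encodes a kinase that phosphorylates tau, MAP2 and MAP4 and releases them from microtubules. EML4 encodes a microtubule-binding protein, known from its fusion with ALK in lung cancer.

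MARK1 (16677655) read 5.43 and 5.42 with vehicle, 5.33 and 5.25 with cabazitaxel, and 5.45 and 5.43 with docetaxel in charcoal serum. In full serum it read 5.04 and 5.05, 5.16 and 5.13, and 5.24 and 5.21 in the same order. Every charcoal array lay above every full-serum array, and 2.67% of all genes did not overlap between the sera, in either direction. The lowest charcoal array, 5.246 with cabazitaxel, cleared the highest full-serum array, 5.242 with docetaxel, by a narrow margin. The difference was -0.24, a 1.18-fold lower level (SE 0.0381, limma adjusted p = 0.00559), and it stayed past the threshold without each of the 12 arrays (adjusted p from 0.0119 to 0.0258 by limma). With the constant subtracted it was -0.42 (limma adjusted p = 0.0145). Under vehicle alone the difference was -0.38 (limma adjusted p = 0.0377), which was not called without 10 of the 12 arrays taken 1 at a time (adjusted p up to 0.215 by limma), nor with the constant subtracted (-0.66, limma adjusted p = 0.0935). MARK1 was not called under cabazitaxel (-0.14, limma adjusted p = 0.718) or under docetaxel (-0.21, limma adjusted p = 0.347).

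EML4 (16879408) read 6.56 and 6.79 with vehicle, 6.62 and 6.66 with cabazitaxel, and 6.94 and 6.83 with docetaxel in charcoal serum, and 6.58 and 6.43, 6.32 and 6.40, and 6.51 and 6.58 in full serum. The sera overlapped through charcoal vehicle array 1. The difference was -0.26 (SE 0.0529, limma adjusted p = 0.0254). It was not called without 8 of the 12 arrays taken 1 at a time (adjusted p up to 0.085 by limma), nor with the assumed constant subtracted (limma adjusted p = 0.118). EML4 was not called in any single treatment, with limma adjusted p of 0.701 in vehicle, 0.468 in cabazitaxel and 0.222 in docetaxel.

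The median differences of the 7 lists lay between -0.076 and 0.066 in the mean comparisons of serum, of each drug with vehicle, and of the drugs. For serum, the lists' medians ran from -0.0382 for kinases of MAPs (11 of 13 tested) to 0.0416 for spindle MAPs (7 of 13 tested), against -0.00142 over all genes. For cabazitaxel they ran from -0.0452 for spindle MAPs to 0.0295 for stathmin and doublecortin paralogs (5 of 7 tested), and for docetaxel from -0.0145 for tubulin modification and folding (15 of 27 tested) to 0.0657 for kinases of MAPs. Medians over all genes were 0.00208 and 0.00913 for the drugs. For cabazitaxel minus docetaxel the lists' medians ran from -0.076 for kinases of MAPs to 0.0227 for stathmin and doublecortin paralogs, against -0.00976 over all genes.

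**Figure D4:**
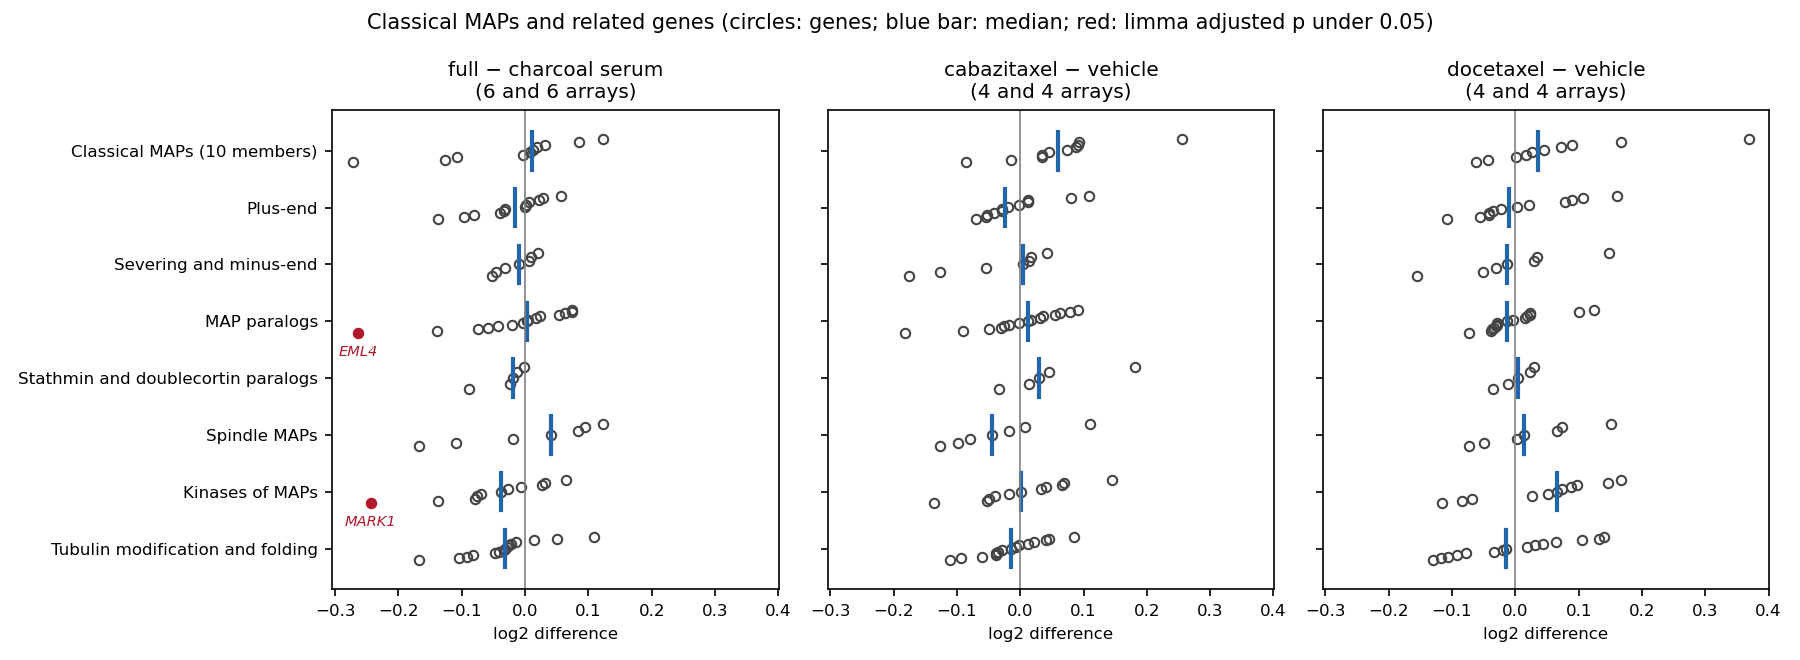
Log2 difference (horizontal axis) of each tested gene, as circles, for the 10 members and the 7 lists of related genes (rows), in the serum comparison and for each drug against vehicle; blue bars are medians. EML4 at -0.26 and MARK1 at -0.24 in the serum panel, in red, are the genes with an adjusted p under 0.05.

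In the lists without a call, the genes with the smallest p are given, and none of them passed. Among plus-end proteins (12 of 18 tested), which ride on growing ends, CLASP1 and NAV1 stood at -0.10 and -0.08 for serum. NAV3 and GTSE1 stood at 0.08 and 0.11 for cabazitaxel, and CLASP1 and CKAP5, the gene of a microtubule polymerase, at 0.11 and 0.09 for docetaxel. Among severing and minus-end proteins (7 of 10 tested), FIGNL1 and CAMSAP1 stood at -0.05 each for serum, FIGNL1 and KATNAL1 at -0.18 and -0.13 for cabazitaxel, and KATNAL1 and CAMSAP1 at -0.16 and 0.15 for docetaxel.

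Paralogs of stathmin and doublecortin stayed close to 0 apart from STMN3, a stathmin of neurons, at -0.09 for serum, 0.18 for cabazitaxel and -0.03 for docetaxel. STMN2, DCX and DCLK2 exceeded the median of all values on only 2, 5 and 4 arrays. They were read at the floor, which compresses their differences. DCLK2 stood at -0.02 for serum, STMN4 at 0.05 for cabazitaxel and STMN2 at 0.03 for docetaxel. Among spindle MAPs, NUMA1, which gathers microtubules at spindle poles, stood at -0.17 for serum (limma adjusted p = 0.157), -0.10 for cabazitaxel and 0.07 for docetaxel. NUSAP1 stood at 0.12 for serum, and the kinesin gene KIF18A at 0.11 and 0.15 for the drugs.

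Among enzymes that modify or fold tubulin, AGBL5, a deglutamylase, stood at -0.17 for serum and TBCA, a tubulin folding cofactor, at 0.11. TBCD stood at -0.11 for cabazitaxel, TBCEL at 0.13 for docetaxel, and the tubulin deacetylase HDAC6 at -0.09 and -0.13 for the drugs. For the drugs, the lists with a serum call had CKAP2L at -0.18 and MAP1LC3B at 0.09 with cabazitaxel. With docetaxel they had EML4 at 0.12 and CKAP2 at 0.10. These genes come from the list labelled MAP paralogs (15 of 18 tested). The label is loose, since CKAP2L, MAP1LC3B, EML4 and CKAP2 do not belong to the members' gene families. Of the kinases, BRSK2 and MARK4 stood at 0.15 and -0.14 with cabazitaxel, and TAOK1 and MARK1 at 0.17 and 0.10 with docetaxel.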

How the data were processed

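The deposited values are array intensities, for which the submitters' processing notes name RMA as the authors' normalisation. RMA's version and the threshold of the authors' filter on low-expressing genes are not given in the sources used here. The values lie on a linear scale from 17.32 to 6307, and 57.5% fall below 24, so they sit above a floor that compresses differences of weak genes. Array medians ran from 22.19 to 22.43. Precision is limited by the number of arrays.

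The log2 of each intensity was taken. Of 44629 transcript clusters, 15835 carried 1 gene symbol and 28794 were unnamed here. The cluster with the highest mean stood for a gene. A gene was kept where 2 or more arrays exceeded the median over all values (22.31). A single limma fit (limma 3.58.1, R 4.3.3) covered the 12 arrays, giving each group its mean, with 6 residual degrees of freedom. P-values are two-sided and Benjamini-Hochberg adjusted within each of 13 comparisons. The script was tested on simulated data. Replicates of a group correlated across genes with r from 0.9863 to 0.9922.

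The members, the lists and the rules were chosen with earlier results of these data known. By the naming rule, all members are described, and of each list the called genes or otherwise the 2 with the smallest p per mean comparison. Alternatives were no filter, an assumed constant of 16 subtracted, quantile normalization, a replicate block, the mean of a gene's clusters, each array left out, and the test the series' methods name.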

Additional observations from a re-analysis of the deposited data

How the results depend on the processing

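No member was called in the 228 counts made over the alternatives, and 0 genes were called in the comparisons with a drug effect. The alternatives covered all 13 comparisons, except the methods' test, which was run for the 7 comparisons of 2 arrays with 2, of which 4 involve a drug. The genes called between sera as the mean of the 3 treatments, 256, became 149 to 248 without 1 array (149 without full-serum docetaxel replicate 2) and 132 with the assumed constant of 16 subtracted, against 359 with the replicate block. In vehicle, 44 became 7 (without charcoal vehicle replicate 2) to 46, with 16 after subtraction, 70 with the replicate block and 0 by the methods' test after adjustment. In cabazitaxel, 44 became 9 (without full-serum cabazitaxel replicate 2) to 43, with 25 without the filter, 10 after subtraction and 2 by the methods' test. In docetaxel, 35 became 7 (without full-serum docetaxel replicate 1 or 2) to 39, with 22 without the filter, 9 after subtraction, 62 with the replicate block and 0 by the methods' test. The causes were not tested. Of 1560 member differences with 1 array left out, 116 changed sign, none of them called, the largest being MAP1B between sera in vehicle (-0.21). Subtraction moved 30 of 130 member differences by more than the spread within groups on the deposited scale, quantile normalization 0. Subtraction also widens the spread of weak genes, so a move of this kind can be a change of scale alone.

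The main fit did not take the replicate numbers as pairs. Over the 15 pairs of groups, the deviations of same-numbered arrays correlated from -0.05 to 0.33 (median 0.15), above 0.1 in 10 of them. The replicate block, which allows for a part shared by arrays of 1 number, gave 359 genes called between sera as the mean of the treatments, against 256. Whether same-numbered arrays have a common source was not tested. MAP1S was higher on the array numbered 1 in 6 of 6 groups, and 7.83% of all genes lay 1 way in all groups. With the replicate block no member was called (smallest adjusted p = 0.123, MAP1B between sera). Weak members (MAP1A, MAP2, MAP6, STMN1) sit near the floor, which limits what their differences can show.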
